A study of Mus musculus with 17 samples.

Results

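The transcripts described here are those of 9 genes that are best known from blood and lymph vessels, Igfbp7, Angpt2, Egfl7, Robo4, Cdh5, Emcn, Esam, Lyve1 and Mmrn2, measured in CD8 T cells. They were chosen because their probes were bright on the arrays of T cells primed by liver sinusoidal endothelial cells (LSEC), so their differences between those arrays and the others describe the choice and carry no test. All 20 probes annotated to the 9 symbols were taken, and 15 of them passed the filter on low values, at least 1 for every gene. These are 9 of 19057 gene symbols on the array. The filter kept probes above the array median on at least 3 arrays, and on all 4 LSEC-primed arrays the brightest probe of every member lay above it, so passing says nothing more about these genes.

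Illumina mouse bead arrays were used to measure transcripts in 17 samples of CD8 T cells of OT-I origin, whose transgenic receptor recognises an ovalbumin peptide. All samples came from animals on a C57Bl/6 background aged 2 to 6 months. The 5 naive samples came from spleen. The 4 LSEC-primed samples came from coculture with LSEC, and the label of sample 4 calls them LSEC-primed where the labels of samples 7, 14 and 15 use the name Tpm, which stands for partial memory T cells in the series title. The 5 effector samples held cells activated by dendritic cells, with a coculture with splenic dendritic cells named for 4 of them and spleen for sample 8. The 3 memory samples came from spleen 3 months after infection with Listeria monocytogenes carrying ovalbumin. T cells were isolated or sorted before lysis, and the labels say neither for which samples a sorter was used nor how T cells were parted from the cells of a coculture. Nor do they tie the samples of a group to different animals or cultures, and the p-values therefore reflect no more than the spread between these samples.

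LSEC line the capillaries of the liver with a perforated layer that lacks an organised basement membrane, take up waste molecules from the blood and can present antigen to passing CD8 T cells. Endothelial cells in general are held together by junctions built around VE-cadherin and secrete factors such as angiopoietins that act on their own receptors. Because each sample is RNA of many cells, fewer cells of a type and less RNA per cell cannot be told apart.

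Mean intensity ran from 226.7 to 471 on 15 arrays and was 140 on memory sample 3 and 96.7 on memory sample 5. For each array the mode of its intensities plus 3 SD of their lower side served as the background level, which lay between 91.2 and 140.4. On memory sample 5, 15.4% of probes lay above that level, against 25.9% to 32.75% on the other arrays. Defining T cell markers were present: 7 of 9 measured CD8 T cell markers, among them Cd3d, Cd3g and Cd8b1, lay above background on all 17 arrays. The other 2 probes were those of Cd8a, above background on 1 LSEC-primed array, and Cd5, on none. The summed normalised level of the 9 ran from 50740 to 55830 on the LSEC-primed, 43950 to 51050 on the naive, 34700 to 44510 on the effector and 52650 to 57880 on the memory arrays. Precision is limited by how few arrays each group had.

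Across the 4 groups the members were bright on LSEC-primed arrays and mostly at background elsewhere. All 36 member values of the 4 LSEC-primed arrays lay above background, against 0 of 45 naive values, 10 of 45 effector values and 5 of 27 memory values. Of all probes, 27.5% to 31.95% lay above background on the naive and 29.0% to 30.7% on the LSEC-primed arrays. The share was 29.0% to 32.75% on the effector and 15.4% to 29.8% on the memory arrays. The 10 effector values were those of Igfbp7 and Egfl7 on each of the 5 effector arrays. Of the 5 memory values, 4 belonged to sample 3, for Igfbp7, Angpt2, Egfl7 and Esam, and 1 was Igfbp7 on sample 5. Levels below are normalised log2 intensities, and since probes differ in brightness the level of one gene is not set against that of another.

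**Figure D1:**
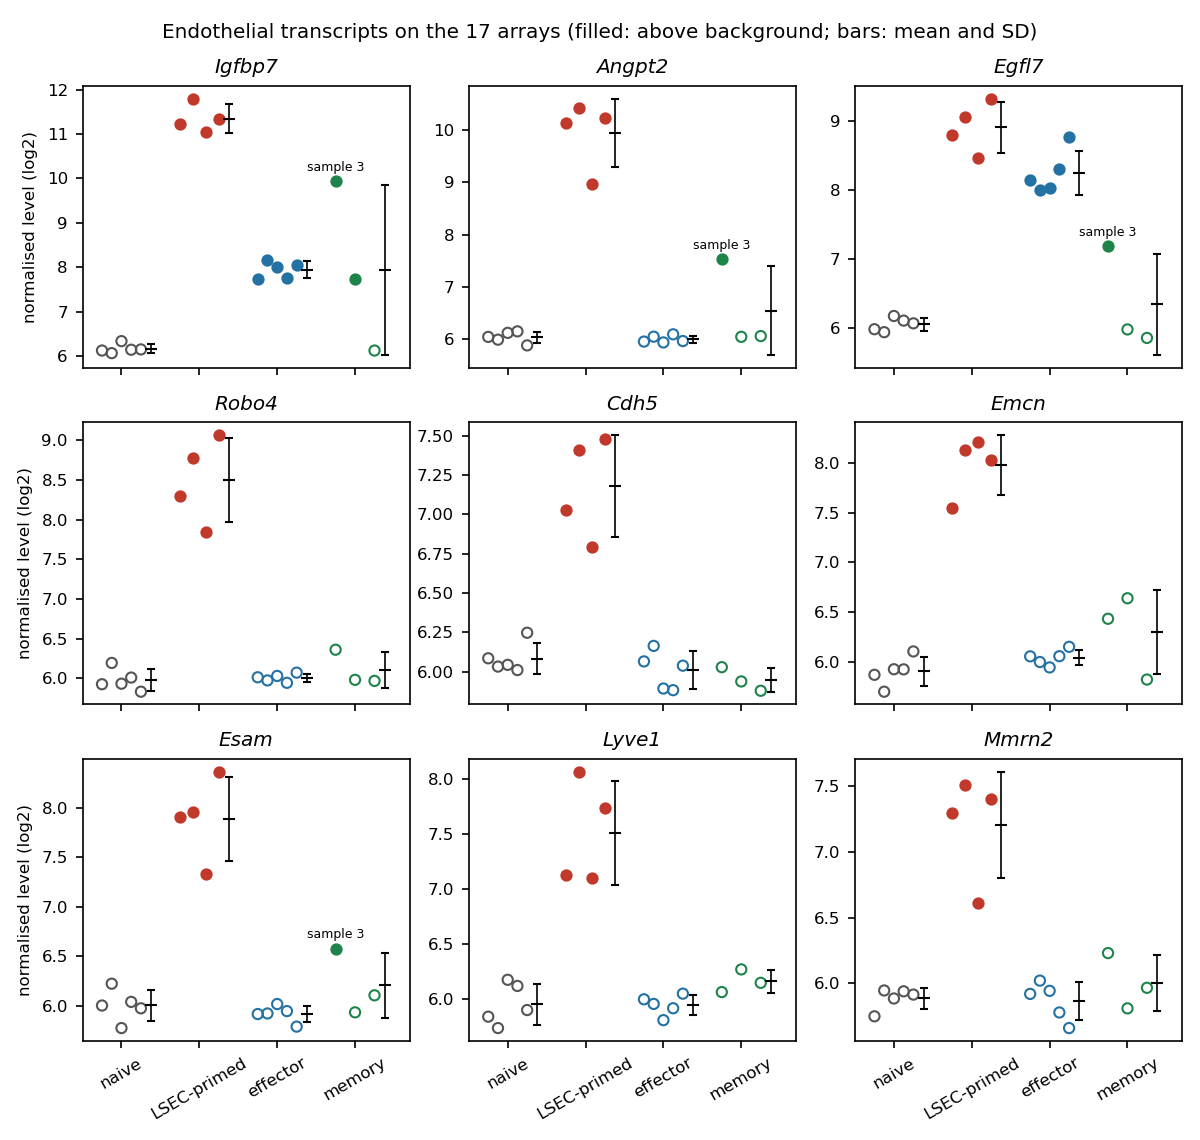
Normalised log2 level of each member (vertical axes, scaled per gene) on the 17 arrays in their 4 groups, with filled points above the background level of the array and open points at or below it. Bars give the mean and SD of each group, all 4 LSEC-primed points are filled for every gene, and memory sample 3 is named where its value stands apart.

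Igfbp7 encodes a secreted binding protein of the insulin-like growth factor family that is abundant in vessel walls. Its intensity was 2115, 5567, 2819 and 3690 on LSEC-primed samples 4, 7, 14 and 15. On the naive samples 1, 2, 11, 12 and 13 it was 92.3, 89.5, 96.5, 111 and 114, below the background level of each array. On effector samples 6, 8, 10, 16 and 17 it was 192, 519.7, 347, 426 and 419, and on memory samples 3, 5 and 9 it was 349.5, 92.5 and 100.1. The LSEC-primed and effector arrays were thus bright throughout and apart from each other, and the memory group held 1 bright array, 1 just above its background level of 91.2 and 1 below its level of 110.3. In normalised levels Igfbp7 stood at 11.35 ± 0.32 (SD, n = 4) in LSEC-primed cells, 7.94 ± 0.19 (n = 5) in effector cells, 7.93 ± 1.91 (n = 3) in memory cells and 6.16 ± 0.10 (n = 5) in naive cells. In that order the effector and memory groups did not differ beyond their spread.

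Angpt2 encodes angiopoietin-2, a secreted ligand of the receptor Tek that endothelial cells store and release. Its intensity on LSEC-primed samples 4, 7, 14 and 15 was 977, 2142, 692 and 1710. On memory sample 3 it was 121, above the background level of 92.5 there, and on memory samples 5 and 9 it was 82.1 and 97.2, below it. The naive values ran from 86.9 to 111.8 and the effector values from 84.2 to 121.5, all below the level of their arrays. On the effector arrays, where Igfbp7 was measured, Angpt2 thus stayed at background. Its mean level was 9.94 ± 0.65 in LSEC-primed cells, 6.54 ± 0.85 in memory cells, 6.04 ± 0.11 in naive cells and 6.00 ± 0.07 in effector cells, and the last 3 did not differ beyond their spread.

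Egfl7 encodes a secreted protein of the vascular matrix, and its mouse gene holds the microRNA miR-126 in an intron. Its brightest probe gave 378, 785.5, 491.5 and 904.5 on LSEC-primed samples 4, 7, 14 and 15 and 244, 461, 350.4, 641 and 695 on effector samples 6, 8, 10, 16 and 17. The ranges of these 2 groups overlapped, which held for no other member. Memory sample 3 read 109.8, above background, while memory samples 5 and 9 and all naive samples lay below it. Mean levels were 8.90 ± 0.37 in LSEC-primed cells, 8.25 ± 0.32 in effector cells, 6.35 ± 0.73 in memory cells and 6.06 ± 0.09 in naive cells. Mmrn2 encodes a matrix glycoprotein of the vessel wall and had intensities of 151.9, 241, 140.1 and 247 on LSEC-primed samples 4, 7, 14 and 15. Its lowest LSEC-primed value was 1.24 times the background level.

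The brightest probes of the membrane receptors lay above background on LSEC-primed arrays and on no other array. Robo4, a roundabout family receptor largely restricted to endothelium, had intensities of 278, 637, 325 and 759.6 on samples 4, 7, 14 and 15. Lyve1, a hyaluronan receptor of lymphatic and liver sinusoidal endothelium, had 139, 366, 197 and 308. These values lay above the background level on all 4 arrays for both genes. Mean levels were 8.50 ± 0.53 for Robo4 and 7.51 ± 0.48 for Lyve1 in LSEC-primed cells (n = 4). In the other 3 groups the means ran from 5.98 to 6.10 for Robo4 and from 5.95 to 6.16 for Lyve1.

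The adhesion molecules followed the same grouping. Cdh5, which encodes VE-cadherin, the central adhesion protein of endothelial junctions, had intensities of 132, 224, 159 and 260.4 on LSEC-primed samples 4, 7, 14 and 15. Esam, an adhesion molecule of endothelial junctions and platelets, had 217, 335, 231 and 467 there and 93.9 on memory sample 3, just above the background level of 92.5. Emcn encodes endomucin, a mucin-like surface protein of venous and capillary endothelium, and had 175, 383, 416 and 376. All 3 genes stayed at or below background on the naive and effector arrays. Mean levels on the LSEC-primed arrays were 7.18 ± 0.32 for Cdh5, 7.89 ± 0.43 for Esam and 7.98 ± 0.30 for Emcn.

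Counted over the members, no LSEC-primed value of any gene fell within the naive range, for 9 of 9 members, where 7.74% of all 23699 features tested were higher without overlap. Against memory cells this also held for 9 of 9 (9.89% of features), and against effector cells for 8 of 9 (8.58% of features), the exception being Egfl7. The choice of the members fixed these counts. Against naive cells, the brightest LSEC-primed means were at least 31.9-fold higher for Igfbp7, 12.0-fold for Angpt2, 5.85-fold for Egfl7 and 4.43-fold for Robo4. The bounds were 3.10-fold for Emcn, 2.91-fold for Esam, 2.23-fold for Lyve1, 1.81-fold for Mmrn2 and 1.77-fold for Cdh5. They are lower bounds because every naive value lay at background, and each sets the LSEC-primed mean against the higher of the background level and the naive reading. Against effector cells the difference was 3.40 on the log2 scale for Igfbp7 and 0.65 for Egfl7, with no bound needed since both groups were measured. Against memory cells Igfbp7 differed by 3.42, and of the 3 memory values that of sample 9 lay below background.

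Several members have more than 1 probe, and the others were mostly silent. Of 11 second probes, 7 lay above background on no array at all. Igfbp7 had 1 bright probe of 5 and Robo4 1 of 4, with another Robo4 probe above background on 1 memory array. The second Cdh5 probe was above background in LSEC-primed samples on 3 of 4 arrays and that of Angpt2 on 1. For Egfl7 the probe named for the transcript NM_198725 was the brightest, that named for NM_198724 lay above background on the same 4 LSEC-primed and 5 effector arrays, and the third lay at background on every array. Relative to the array mode, the first of these was 8.64, 19.4, 8.28 and 6.56 times as bright as the second on LSEC-primed samples 4, 7, 14 and 15, and 5.53 to 8.93 times on the effector arrays. The ranges of this probe ratio overlapped between the groups.

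Promoter sequence was available for 4 of the 9 members, and windows are shown for these because the members were bright together on the same arrays. The windows are those of RefSeq on GRCm38.p6, reach from 250 bases before to 50 bases after an annotated start and are written 5′ to 3′ on the strand of the gene. Capitals mark AGGAAG, a form of the core bound by ETS factors, or its reverse complement CTTCCT. The Igfbp7 window lies at chr5:77407996-77408295 on the minus strand, that of Robo4 at chr9:37401722-37402021 on the plus strand and that of Emcn at chr3:137340828-137341127 on the plus strand. Of 3 windows of Egfl7 the most upstream is shown, at chr2:26580833-26581132 on the plus strand.
Igfbp7: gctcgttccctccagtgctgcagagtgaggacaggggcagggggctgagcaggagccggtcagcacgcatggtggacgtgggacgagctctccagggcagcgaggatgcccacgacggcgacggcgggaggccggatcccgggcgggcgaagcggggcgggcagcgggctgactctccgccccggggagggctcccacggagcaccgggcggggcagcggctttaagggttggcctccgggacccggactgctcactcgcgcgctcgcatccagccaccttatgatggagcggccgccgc
Egfl7: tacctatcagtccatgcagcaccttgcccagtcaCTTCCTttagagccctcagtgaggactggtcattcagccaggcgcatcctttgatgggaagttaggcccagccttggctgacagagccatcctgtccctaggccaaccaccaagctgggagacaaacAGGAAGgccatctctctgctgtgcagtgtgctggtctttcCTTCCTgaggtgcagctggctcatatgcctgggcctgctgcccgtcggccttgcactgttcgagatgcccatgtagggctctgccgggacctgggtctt
Robo4: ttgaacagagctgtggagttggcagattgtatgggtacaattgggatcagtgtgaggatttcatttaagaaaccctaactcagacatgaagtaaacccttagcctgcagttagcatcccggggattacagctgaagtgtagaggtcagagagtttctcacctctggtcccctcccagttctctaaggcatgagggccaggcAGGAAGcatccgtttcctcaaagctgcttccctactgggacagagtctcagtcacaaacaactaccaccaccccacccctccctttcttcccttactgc
Emcn: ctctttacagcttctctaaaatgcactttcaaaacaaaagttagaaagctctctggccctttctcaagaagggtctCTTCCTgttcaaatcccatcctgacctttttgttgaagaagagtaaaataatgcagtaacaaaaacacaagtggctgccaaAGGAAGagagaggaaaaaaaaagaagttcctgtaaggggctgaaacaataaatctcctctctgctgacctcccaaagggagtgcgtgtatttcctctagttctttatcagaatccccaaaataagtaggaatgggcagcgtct

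AGGAAG and CGGAAG were searched on both strands, and the 2 forms can share bases. In the sequences above AGGAAG occurred 3 times for Egfl7, 2 times for Emcn, 1 time for Robo4 and not at all for Igfbp7, and CGGAAG in none. The other 2 Egfl7 windows held 2 matches and 0 matches. Among 32851 windows of the same length, 35.4% held AGGAAG, 16.9% CGGAAG and 46.5% either form. A match is a description of these letters and not a binding site, and which Egfl7 start gives the transcripts read by the probes is not known from these data.

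Whether the members kept their proportions was read from ratios on the same array, using intensity less the mode of the array and only values above background. On the LSEC-primed arrays Igfbp7 was 6.95, 7.95, 6.84 and 4.48 times Egfl7 for samples 4, 7, 14 and 15. On the effector arrays the ratio was 0.674, 1.16, 0.985, 0.592 and 0.534 for samples 6, 8, 10, 16 and 17. Every effector ratio lay below every LSEC-primed ratio. On the normalised log2 scale the mean of Egfl7 less Igfbp7 was lower in LSEC-primed than in effector cells by a difference of -2.75. This difference follows in part from the choice of the members and has no test.

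Angpt2 went the other way. Igfbp7 was 2.28, 2.68, 4.55 and 2.23 times Angpt2 on the 4 LSEC-primed arrays in the order above. On the 5 effector arrays Angpt2 lay at background, so Igfbp7 exceeded it by at least 7.77 to 19.6 times, above the highest LSEC-primed ratio on 5 of 5 arrays. On the normalised log2 scale, with Angpt2 at its background reading, Igfbp7 less Angpt2 ran from 1.66 to 2.11 on the effector arrays against 1.10 to 2.06 on the LSEC-primed arrays, so there the ranges overlapped and 3 of 5 arrays lay above. For Robo4 the LSEC-primed ratios of intensities less the mode ran from 5.47 to 11.7 and the effector bound lay above them on 3 of 5 arrays, but on the normalised scale Igfbp7 less Robo4 lay above the LSEC-primed range on 0 of 5. For the other 5 members the effector bounds did not exceed the highest LSEC-primed ratio, which ran up to 57.9 for Mmrn2, so at these intensities a shift in their proportion to Igfbp7 was not detectable.

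**Figure D2:**
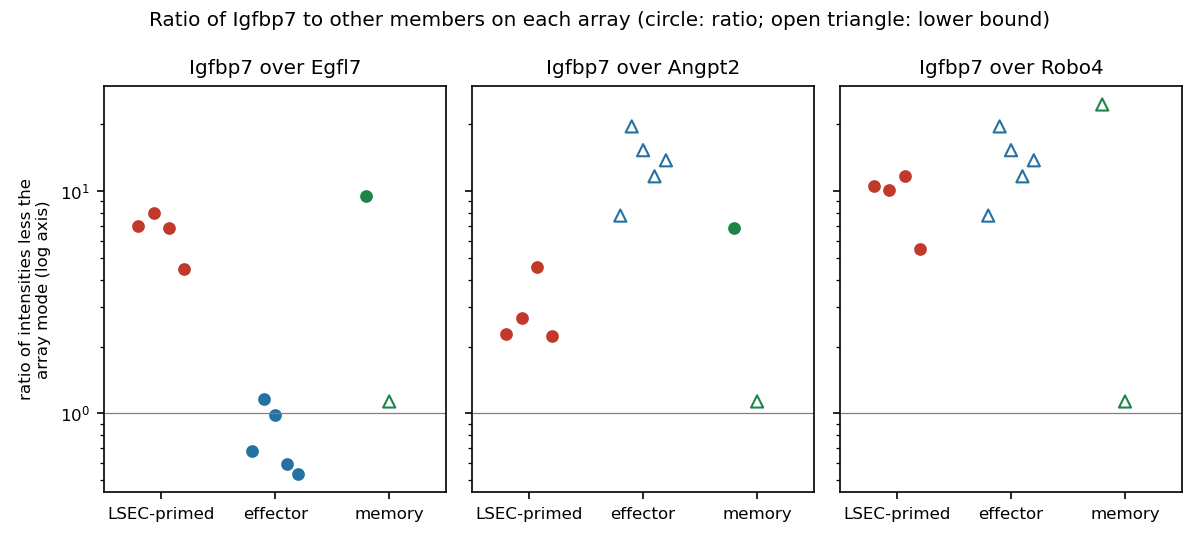
Ratio of Igfbp7 to Egfl7, Angpt2 and Robo4 on each array (log axis), from intensities less the array mode, with circles for ratios and open triangles for lower bounds where the other gene lay at background. Effector ratios to Egfl7 lie between 0.534 and 1.16, below all 4 LSEC-primed ratios, whereas effector bounds for Angpt2 start at 7.77, above all 4.

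Memory sample 3 is a single array with no replicate of its own. Of the arrays outside the LSEC-primed group, it alone had members besides Igfbp7 and Egfl7 above background in their brightest probes, namely Angpt2 and Esam. Its ratio of Igfbp7 to Egfl7 was 9.53, above the LSEC-primed range of 4.48 to 7.95, and to Angpt2 it was 6.84, above the range of 2.23 to 4.55. To Esam the ratio was 21.8, within the LSEC-primed range of 9.88 to 23.0. Robo4 and Emcn lay at background there, and Igfbp7 exceeded each by at least 24.6 times, above the highest LSEC-primed ratios of 11.7 and 22.9. Relative to Igfbp7, 4 of these 5 members were lower on this array than on any LSEC-primed array in intensities less the mode, and Esam was not. On the normalised log2 scale this held for Angpt2, where Igfbp7 less Angpt2 was 2.41 against up to 2.06, and for Robo4 at its background reading, 3.57 against up to 3.18. It did not hold there for Egfl7, at 2.74 against up to 2.74, or for Emcn, at 3.50 against up to 3.68. Intensity on memory sample 3 was 93.9 for Esam and 91.2 for Emcn, either side of the background level of 92.5. The contrast between these 2 genes thus rests on readings close to that level. For Cdh5, Lyve1 and Mmrn2 the bound of 24.6 did not exceed the highest LSEC-primed ratio.

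Other genes of vessel and stromal cells were above background on memory sample 3 as well. Of 75 measured endothelial genes that are not members, Plvap, a protein of fenestral diaphragms, lay above background there and on no naive array and neither of the other memory arrays, at 118. Among 19 stellate cell and fibroblast markers the matrix proteoglycans Bgn (124) and Dcn (105.5) and the smooth muscle actin gene Acta2 (97.1) did so. The ratio of Igfbp7 to Bgn on sample 3 was 6.27, against 3.33 to 6.26 on the LSEC-primed arrays, and that to Dcn was 11.2, against 6.23 to 11.5. To Plvap it was 7.29, within the range of 6.48 to 18.7, and to Acta2 it was 17.3, above the range of 6.53 to 13.8. All 4 of these genes lay above background on every LSEC-primed array. What part other cells, RNA quality or the low brightness of the array have in these values was not tested.

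Tests were possible for the comparisons without LSEC-primed arrays, with limma on all groups and Benjamini-Hochberg adjustment over 23699 features. Between effector and naive cells 2 of 9 members rose and none fell, where 11.5% of features were called higher and 23.0% in either direction. Igfbp7 was at least 3.01-fold higher in effector cells, and its fitted difference was 1.78 on the log2 scale (SE 0.44, limma adjusted p = 0.0059). Egfl7 was at least 3.72-fold higher, and its fitted difference was 2.19 (SE 0.22, limma adjusted p = 8.94e-07). Both genes were higher in 5 of 5 effector samples than in every naive sample, where 11.1% of features were higher without overlap. The other 7 members differed by -0.08 to 0.14 and were not called, and both groups lay at background for each of them. This comparison shares the naive arrays with one that chose the members.

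Effector and memory cells differed in Egfl7. Its log2 difference was 1.90 (SE 0.26, limma adjusted p = 2.67e-05). All 5 effector values lay above all 3 memory values, where 12.9% of features were higher without overlap. Egfl7 was 1 of 9 members called higher, where 11.9% of features were called higher and 22.7% in either direction. Igfbp7 differed by 0.01 (SE 0.51, adjusted p = 0.99). It was called without memory sample 3, at 1.02 (adjusted p = 0.0186), and with median scaling in place of quantile normalisation, at 1.32 (adjusted p = 0.0434). Without memory samples 3 and 5 it was 1.82 (adjusted p = 2.67e-05), with sample 9 as the 1 memory array left, at background and with its spread assumed from the other groups. Angpt2 differed by -0.54 (SE 0.31, adjusted p = 0.241), its 1 value above background in the 2 groups being that of memory sample 3.

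Memory over naive cells gave a call for Igfbp7 alone, 1 of 9 members, where 5.63% of features were called higher, 6.30% lower and 11.9% in either direction. The memory mean lay 2.98-fold above the naive background level, which is no lower bound because memory sample 9 also lay below background. The fitted difference was 1.77 (SE 0.51, limma adjusted p = 0.0315). The values of the groups overlapped, since memory sample 9 lay at 6.12 within the naive range of 6.06 to 6.34. No member was higher without overlap, where 6.87% of features were. Samples 3 and 5 lay at 9.93 and 7.73, and the background level of sample 5 corresponds to 7.56 on this scale. Without sample 3 the difference was 0.76 (adjusted p = 0.0984), without sample 5 it was 1.87 (adjusted p = 0.0695), and without both, with 1 memory array left, it was -0.04 (adjusted p = 0.972). Without sample 9 it was 2.67 (adjusted p = 0.00015), and Emcn was then called too, at 0.63 (adjusted p = 0.00842), although Emcn lay at background on every naive and memory array. The call also ended with median scaling, at 0.82 (adjusted p = 0.281), with only the groups compared (adjusted p = 0.167) and without any one of naive samples 1, 2, 12 and 13 (adjusted p = 0.053 to 0.0562).

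Within the LSEC-primed group the normalised levels of the members moved up and down largely together. Sample 14 gave the lowest level for 8 of 9 members, with a median deviation of -0.45 on the log2 scale from the mean of the 4 arrays, reaching -0.97 for Angpt2. Emcn was the exception and was highest there, at 0.23 above its mean, whereas sample 4 gave its lowest level, at -0.44. Samples 7 and 15 each gave the highest level for 4 members. This order depends on the scale. In intensities less the array mode, which are not scaled between arrays, most members read lowest on sample 4, such as Igfbp7 at 2028 against 2726 on sample 14. Angpt2 and Mmrn2 read lowest on sample 14 there too. Mean intensity was 234 on sample 4 and 326 on sample 14. On the normalised scale, for 7 of the other 8 genes the SD of the log2 ratio to Igfbp7 over the 4 arrays was smaller than the SD of the gene's own level, for example 0.23 against 0.48 for Lyve1, 0.23 against 0.32 for Cdh5 and 0.45 against 0.65 for Angpt2. For Emcn it was larger, 0.41 against 0.30. From intensities less the array mode the SD of these log2 ratios ran from 0.36 for Egfl7 to 0.64 for Emcn. It was 0.50 for Lyve1, 0.45 for Cdh5 and 0.48 for Angpt2, larger than on the normalised scale. The SD of the levels was not taken on that scale, so whether the ratios spread less than the levels there is not known. In effector cells, where Igfbp7 and Egfl7 were both measured, the SD of their ratio was 0.37 and that of the Egfl7 level 0.32.

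**Figure D3:**
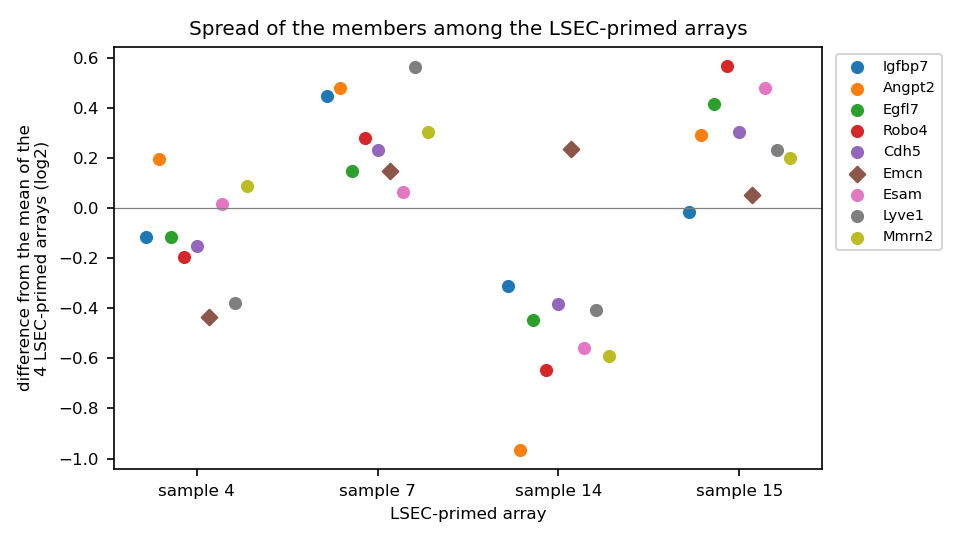
Deviation of each member from its mean over the 4 LSEC-primed arrays (log2, vertical axis) for samples 4, 7, 14 and 15, with 1 point for each gene and a diamond for Emcn. On this normalised scale sample 14 holds 8 of the 9 members at their lowest and Emcn at its highest.

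Among the LSEC-primed arrays sample 14 also stood apart in markers of myeloid cells. Of 12 measured macrophage and Kupffer cell markers 9 lay above background there, against 1 on each of the other 3 LSEC-primed arrays, and their summed normalised level was 3994 against 815 to 941. On the naive arrays 1 to 7 of the 12 lay above background, with 7 on sample 1 and 6 on sample 11. Their sums there were 1543 and 1628. The complement gene C1qb, made by Kupffer cells, had a mean of 6.88 ± 1.68 over the 4 arrays and lay above background on 1 of them. The sum of 11 dendritic cell markers was 8603 against 1201 to 1250, with 5 of them above background there and 5 or 6 on the other LSEC-primed arrays. On the naive arrays this sum ran from 1063 to 3534. The MHC class II genes H2-Ab1, H2-Aa and H2-Eb1 and Cd74 had SDs of 1.44 to 2.26 over the LSEC-primed arrays. Flt3, Itgax, Clec9a and Cd209a lay at background on all of these arrays. Of the endothelial genes that are not members, 11 of 34 in the pan-endothelial list lay above background on sample 14 against 14, 19 and 14 on samples 4, 7 and 15. The part of these markers in the members' levels was not tested.

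Endothelial genes beyond the members were compared through 6 lists, which were chosen with earlier results of these data known. Together they held 75 measured genes, of which 25 were higher and none lower in LSEC-primed than in naive cells, where 7.75% of all features were called higher, 5.39% lower and 13.1% in either direction. Their median log2 difference was 0.14, against 0.00 over all features. Against effector cells 23 were higher and 6 lower, where 7.99% of features were called higher, 6.81% lower and 14.8% in either direction. Against memory cells 20 were higher and 3 lower, where 7.93% of features were called higher, 5.40% lower and 13.3% in either direction, and 20 fell to 13 without memory sample 5 and to 7 with only the groups compared. Effector over naive cells gave 10 higher and 4 lower, where 11.5% and 11.4% of features were. Memory over naive cells gave 7 higher and 0 lower, where 5.63% and 6.30% were, and effector over memory cells gave 7 and 8, where 11.9% and 10.8% were. Without memory sample 5 the 7 higher in memory than in naive cells became 4, and with median scaling 2.

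Of 34 pan-endothelial genes, 11 passed the test as higher in LSEC-primed than in naive cells and none as lower. Plvap had a mean of 8.17 ± 0.50 in LSEC-primed cells and lay at background in naive cells, a difference of at least 3.52-fold (adjusted p = 1.32e-05 by limma). Esm1, which encodes the secreted proteoglycan endocan, was at least 3.67-fold higher (adjusted p = 7.05e-06). For Ptprb, an endothelial phosphatase, the bound was 1.71-fold (adjusted p = 3.99e-06). Cd93, a surface glycoprotein of endothelial and myeloid cells that is a partner of Mmrn2, rose by 1.76 (SE 0.20, adjusted p = 1.23e-05), with 1 of 5 naive arrays above background. Pecam1 and Icam2, adhesion molecules also made by leukocytes, were above background on every naive array and differed by -0.51 and -0.24, without a call. Esm1 was also above background on all 3 memory arrays, and its memory mean lay 2.46-fold above the naive background level (limma adjusted p = 0.000392). Its level on memory sample 3 was 6.98. On the dim memory sample 5 the background level itself corresponds to 7.56, against 6.27 to 6.42 on the naive arrays. Any value above background reads at least that high there, so the size of this difference depends on the scaling of that array.

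Several genes that define endothelium lay at background on these arrays. Of the pan-endothelial genes 13 lay above background on none of the 4 LSEC-primed arrays, among them, named after their values were seen, Kdr, the main receptor of vascular endothelial growth factor, at 6.04 ± 0.11, the von Willebrand factor gene Vwf at 6.00 ± 0.05 and the transcription factor Erg at 6.07 ± 0.09. Among sinusoidal genes Clec4g, a lectin typical of LSEC, also lay at background, at 6.17 ± 0.07. These probes had naive means of 6.08, 6.06, 6.00 and 6.08 in the same order. The endothelial label thus rests on the members and the genes named above and not on these markers. A probe at background does not show that its transcript was absent. Of the second probes of the members, 7 of 11 were silent on every array, and Igfbp7 had 1 bright probe of 5.

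Of 14 sinusoidal endothelial genes 5 were higher and none lower. Fcgr2b, an inhibitory Fc receptor that is abundant on LSEC, was at least 3.10-fold higher than in naive cells (limma adjusted p = 8.4e-06), but memory cells stood higher still, at 10.65 ± 0.42 against 7.99 ± 0.55. Oit3, a secreted protein of LSEC, had a bound of 1.98-fold (adjusted p = 1.21e-05) and was the 1 gene of the 75 above background on every effector array and on no naive array, as Egfl7 and Igfbp7 were. The scavenger receptor gene Stab1 rose by 1.11 (SE 0.14, adjusted p = 4e-05), and effector cells stood higher, at 9.26 ± 0.17 against 7.76 ± 0.04. The nuclease gene Dnase1l3 rose by 0.78 (SE 0.24, adjusted p = 0.0426). Mrc1, the mannose receptor, and the endocytic gene Ehd3 differed by -0.41 and -0.55, without a call.

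Partners of Angpt2 and Robo4 differed in how far they were measured. In the angiopoietin and vascular endothelial growth factor axis 5 of 11 genes rose from naive to LSEC-primed cells and none fell. Vegfa, the growth factor itself, rose by 1.37 (SE 0.19, adjusted p = 8.01e-05), to 7.52 ± 0.46, with 1 of 5 naive arrays above background, and effector cells stood higher at 9.83 ± 0.21. The coreceptor Nrp1 rose by 0.88 (SE 0.13) and Vegfb by 0.64 (SE 0.17), whereas Tek, the receptor of Angpt2, differed by 0.22 (SE 0.10, adjusted p = 0.203) and lay above background on 1 LSEC-primed array. The Vegfc mean lay 1.05-fold above the naive background level (limma adjusted p = 0.00119). This is no lower bound, since 3 of 4 LSEC-primed arrays were above background. The fifth gene called, the receptor gene Flt1, differed by 0.24 (adjusted p = 0.0262) but lay at background on all 17 arrays, and it is also among the 11 pan-endothelial genes above. In the SLIT and ROBO axis 2 of 9 genes were higher, Srgap3 and Robo1. Srgap3, an intracellular partner of roundabout receptors, rose by 1.04 (SE 0.22, limma adjusted p = 0.00382). The Robo1 mean lay 1.02-fold above the naive background level (limma adjusted p = 0.0241), with 3 of 4 LSEC-primed arrays above background, so this is no lower bound. Slit3, a ligand of roundabout receptors, lay at background on all 17 arrays.

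Among 11 junction genes 4 were higher and none lower. The catenin gene Ctnna1, which links cadherins to actin in many cell types, rose by 1.53 (SE 0.19, adjusted p = 2.33e-05), and effector cells stood higher at 10.58 ± 0.21 against 9.83 ± 0.48. The mean of Cldn5, the claudin of endothelial tight junctions, lay 1.13-fold above the naive background level (limma adjusted p = 0.00116). That of F11r, an adhesion molecule of tight junctions, lay 1.12-fold above it (limma adjusted p = 0.0153). Each was above background on 3 of 4 LSEC-primed arrays, so these values are no lower bounds. Ctnnb1, beta-catenin, differed by 0.11 without a call. Of 6 lymphatic genes the call was for Pdpn, which encodes podoplanin, a surface glycoprotein of lymphatic endothelium and fibroblastic cells, at least 2.99-fold higher (adjusted p = 4.66e-06).

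Some stellate cell and fibroblast markers were high on the same arrays as the members. Of 19 measured, 7 were higher and none lower in LSEC-primed than in naive cells, led by Bgn, at least 7.38-fold (adjusted p = 3.38e-07 by limma), Dcn, at least 4.92-fold, and Acta2, at least 4.35-fold. Between 6 and 10 of the 19 lay above background on each LSEC-primed array, against 1 on each naive array, and their summed level ran from 2361 to 3501 against 1277 to 1325. At background on all LSEC-primed arrays were 9 of the 19, among them Lrat, which makes the retinyl esters that stellate cells store, the receptor gene Pdgfrb and the collagen gene Col3a1. Macrophage, dendritic cell, hepatocyte, B cell and megakaryocyte lists had 0 of 12, 11, 10, 6 and 7 genes called in either direction. Of the hepatocyte genes 9 of 10 lay at background on all LSEC-primed arrays, Apoa2 and Hp included, and the iron carrier gene Trf did not. The part of stellate cells or fibroblasts in the members' levels was not tested.

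Erythroid markers went the other way. Of 6 measured, 5 were lower in LSEC-primed than in naive cells, with the haemoglobin gene Hbb-bs at least 55.1-fold lower (adjusted p = 8.93e-09 by limma), and none lay above background on any LSEC-primed or effector array. On the memory arrays 3 to 5 of the 6 lay above background.

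**Figure D4:**
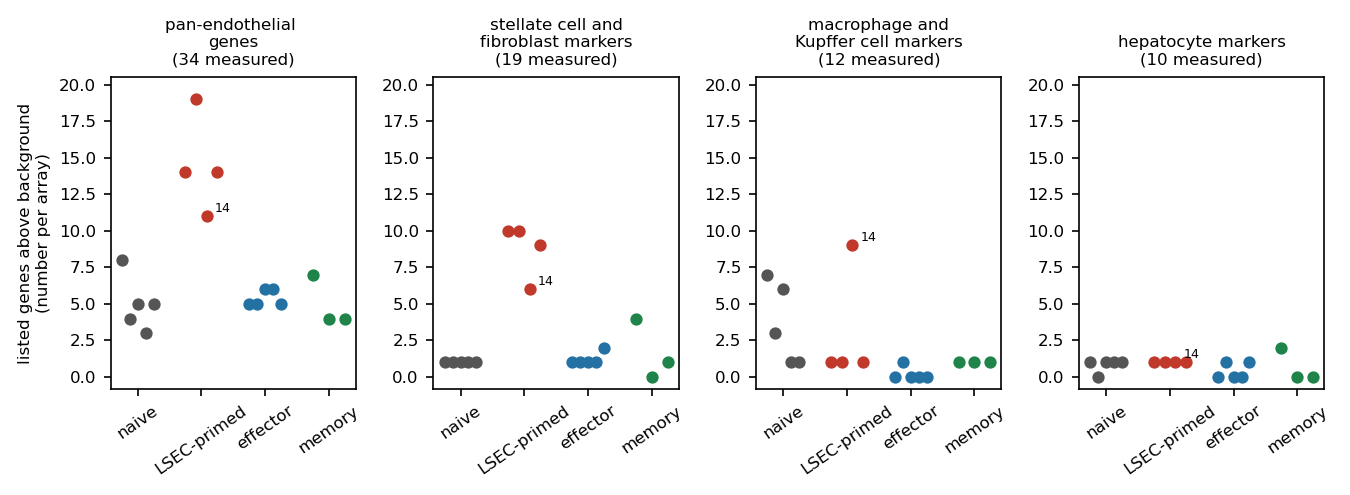
Number of genes above background on each array (vertical axis) for pan-endothelial genes, stellate cell and fibroblast markers, macrophage and Kupffer cell markers and hepatocyte markers, in the 4 groups, with LSEC-primed sample 14 named. Stellate markers number 6 to 10 on LSEC-primed arrays and 1 on each naive array, and macrophage markers number 9 on sample 14 and 1 on each of the other LSEC-primed arrays. On the naive arrays macrophage markers number 1 to 7.

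Over the 17 arrays the genes whose levels followed the mean of the members most closely were chosen by Pearson correlation, given as a description, since the groups differ in level and all genes share the same arrays. Ubd, a ubiquitin-like gene induced by interferon-gamma, had r = 0.991, Serpinh1, a collagen chaperone, 0.982, and Dab2, an endocytic adaptor, 0.981. Edn1, which encodes the vessel peptide endothelin-1, had 0.980, Dcn 0.980, Ch25h, cholesterol 25-hydroxylase, 0.978, Bgn 0.976 and the connexin gene Gja1 0.976. Among these were 2 genes of the stellate and fibroblast list. The members themselves ran from 0.742 for Egfl7 to 0.989 for Robo4, and pairs of members from 0.61 to 0.987. Each member is part of that mean, and all were chosen as bright on the same arrays. Their values are therefore not comparable with those of the other genes. On the LSEC-primed arrays Ubd had a mean of 9.59 ± 0.56, Serpinh1 of 8.83 ± 0.85 and Edn1 of 8.42 ± 0.40, and each had a mean between 5.92 and 6.49 in every other group.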

How the data were processed

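RNA of isolated or sorted CD8 T cells from 17 samples was turned into biotinylated cRNA, per the labels, and hybridised to mouse arrays whose probe identifiers are Illumina's. Intensity for each probe on a linear scale, not normalised, was taken from the table the authors deposited, and a second deposited table of normalised intensity served as an alternative. No source used here names the scanner software. The table held 3 further columns without labels, which were not used.

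Intensities were background corrected (normexp, offset 50), set on the log2 scale and quantile normalised in limma 3.58.1 under R 4.3.3. Of 45281 probes, 35237 exceeded the array median on at least 3 arrays. The platform annotation pairs 34885 probes with 1 symbol, 18 with several and 10378 with none. Each symbol was read from its probe of highest mean, leaving 23699 features. The 4 groups were fitted in 1 limma model (lmFit and eBayes, residual df 13, prior df 3.16) with no covariate, and Benjamini-Hochberg adjusted p under 0.05 was called. The files hold no detection p or control probes, so the background level came from each array's own intensities. Alternatives were the authors' normalised values, median scaling, cyclic loess, no background correction and a stricter filter or none. Further ones averaged a symbol's probes past the filter or used eBayes with trend, array weights or only the groups compared. Memory samples 3 and 5 were also left out, as was each sample in turn. The steps were tested on simulated data. Promoters came from RefSeq (GRCm38.p6). The array files name no genome build, so gene coordinates are not given.

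The genes named were drawn from all members, the 8 genes most correlated with their mean, up to 4 called and 2 uncalled genes of each endothelial list and the 3 brightest of each other list, with exceptions named. The members and lists were chosen with earlier results of these data known.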

Additional observations from a re-analysis of the deposited data

How the results depend on the processing

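No paired analysis was made, because the labels do not tie samples of different groups to a shared animal or culture. The sample numbers run once through the 17 arrays and carry no pairing. The 27 differences of the members between LSEC-primed arrays and the other groups kept their sign under 11 alternatives each. Of these 297 values, 27 moved by over 1 SD. The choice of the members as bright on LSEC-primed arrays favoured that sign. With no filter, a stricter filter, eBayes with trend or only the groups compared, the same probe values were used, so the difference could not change. Leaving out memory samples 3 and 5 could change only the differences from memory cells. The mean of a gene's probes past the filter adds some silent ones. It lowered the difference from naive cells to 2.06 for Angpt2, 1.29 for Egfl7, 0.80 for Robo4 and 0.73 for Cdh5. The silent probes of Igfbp7 did not pass the filter, so this setting left Igfbp7 unchanged and an average with them was not tried. Effector over naive cells had 2 members called under all 11 alternatives and all 17 fits without 1 sample, with an adjusted p for Igfbp7 of up to 0.0156 in limma. The count for memory over naive cells was 0 with median scaling, with only the groups compared and without memory samples 3 and 5, and 0 to 2 without 1 sample. Igfbp7 then turned to -0.0397 without memory samples 3 and 5, which leaves 1 memory array, assumed to vary like the others. The count for effector over memory cells was 2 with median scaling, cyclic loess and without memory samples 3 and 5, and 1 to 2 without 1 sample. With cyclic loess the second member was Angpt2, at -0.99 (adjusted p = 0.047). Endothelial genes called higher over effector cells numbered 14 of 26 with the stricter filter. Over memory cells they numbered 10 with cyclic loess, 11 with array weights, 7 with only the groups compared, 9 without memory samples 3 and 5 and 13 to 21 without 1 sample, lowest without memory sample 5. In memory over naive cells they numbered 2 with median scaling, 4 without memory samples 3 and 5 and 4 to 9 without 1 sample. The Egfl7 to Igfbp7 difference was -3.09 from intensity less the array mode. With the background level at 2 SD above the mode, 2 of 45 naive member values lay above it, and with the array median as the level 15 did. Fits without 1 sample kept the normalisation of all 17 arrays. The limits are dim members, whose proportions cannot be read at background, and 3 memory arrays of which 2 were the dimmest of all.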
